A study of Mus musculus with 14 samples.

Results

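Motile cilium genes were taken as all genes whose symbol begins with Dnah, Dnai, Dnaaf, Cfap, Rsph, Tekt, Spef or Drc followed by a digit, pseudogene symbols left out. The rule matched 72 of the 55335 genes in the files. It used names alone and no measured value. The 72 were 33 Cfap, 16 Dnah, 8 Rsph, 5 Tekt, 5 Dnaaf, 3 Drc and 2 Spef genes, and no symbol matched the Dnai pattern.

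A motile cilium beats because dynein arms, anchored on paired outer microtubules, slide those microtubules against each other. Radial spokes and the central pair of microtubules pass signals to the arms, a nexin-dynein regulatory complex links neighbouring doublets, tektins run inside the doublet wall, and assembly factors build the dynein arms in the cytoplasm before they enter the cilium. In the spinal cord, ependymal cells line the central canal and carry such cilia on the side that faces the cerebrospinal fluid.

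The study profiled single cells of the mouse spinal cord at age P115-120 (postnatal days) in 14 libraries. The 3 SOD1 libraries came from the strain B6SJL-Tg(SOD1*G93A)1Gur/J, which carries a mutant human SOD1 transgene and models amyotrophic lateral sclerosis. The 4 Clec7aKO libraries came from B6.129S6-Clec7atm1Gdb/J, in which the myeloid receptor gene Clec7a is disrupted in the germline, the 4 SOD1_Clec7aKO libraries carried transgene and knockout together, and the 3 nTg libraries carried no transgene. The design text asks what Clec7a does in microglia in this model. No background is named for the nTg and SOD1_Clec7aKO mice, and those of the other groups differ, so genotype and background cannot be told apart. Cords were dissociated with enzymes at warm temperature and myelin was removed with beads, so shares of cells are those of the suspension. Nothing in the labels ties a library to a batch or a sex. The labels do number the libraries, with 1, 5 and 6 for SOD1 and 8, 9 and 12 for nTg. Number and group thus run together where SOD1 is compared with nTg.

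Of 108892 barcodes, 89756 were kept, and the libraries held 28819852 to 141204910 UMIs (unique molecular identifiers, each standing for 1 captured RNA molecule). Library pairs shared 2 to 44 barcodes, at most 0.474% of the smaller library. Clec7a summed to 57449 to 101134 UMIs in the SOD1 libraries, 755 to 1767 in nTg, 74 to 240 in SOD1_Clec7aKO and 33 to 110 in Clec7aKO. Xist was high in nTg_1, nTg_3, Clec7aKO_3 and SOD1_Clec7aKO_4 only (115315, 61166, 55807 and 16188 UMIs). It was at 26 UMIs in nTg_2 and at 4, 11 and 14 in the SOD1 libraries. Xist level and group thus partly run together where SOD1 is compared with nTg, and the labels give no sex. Cells were clustered with the 72 genes kept out of the variable genes, so that they did not enter the clustering.

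The ependymal-like class (ependymal cells below) held 7658 cells in 2 clusters of 5367 and 2291. All 8 ependymal markers, among them Foxj1, the regulator that switches on motile ciliogenesis, were detected, and their summed level was 5276 to 8607 CPM (counts-per-million, the UMIs of a gene scaled to an equal total of UMIs in each class) in every library. The leading 10 genes of the smaller cluster began with the noncoding Cdr1os and the axonemal Mns1 and Ak7, and held 3 of the 72 genes, Dnah6, Dnah12 and Cfap54, and 0 of the 8 markers. It drew 1433, 497 and 354 of its cells from nTg_1, nTg_3 and Clec7aKO_3, which are 3 of the 4 libraries with high Xist. It held 91.9% of the ependymal cells of nTg_1, 95.03% of nTg_3 and 91.7% of Clec7aKO_3, and 0 cells of the SOD1 libraries, so the nTg and SOD1 groups drew most of their ependymal cells from different clusters. The 72 genes held 12867 CPM in that cluster and 11654 CPM in the larger one, Dnah12 500.1 and 403 CPM, and Cfap74 136 and 112 CPM.

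The 5 windows here were picked from members whose window holds the letters GTTGCCA, and they show the DNA next to the starts of genes that differed in how widely they were found. Cfap161, Drc1 and Tekt1 were over 20 times higher in ependymal cells than in every other named class, Cfap44 was 17.0 times higher, and Cfap20 was found in every class. The Cfap44 ratio rests on 7 UMIs in fibroblasts. Ependymal cells held 97.8% of the Cfap44 UMIs and 97.7% of those of Drc1. The windows lie just before the RefSeq start (build GRCm38.p6, outside every GENCODE vM21 exon), run 5′ to 3′ on the gene's strand, and carry capitals at GTTGCCA or its reverse complement, the core of the X-box that RFX factors bind. They are chr7:83794881-83795030 on the minus strand for Cfap161, chr16:44394646-44394795 on the plus strand for Cfap44, chr5:30281238-30281387 on the plus strand for Drc1, chr11:72361883-72362032 on the minus strand for Tekt1 and chr8:95434870-95435019 on the minus strand for Cfap20. The Tekt1 window lies within the GENCODE span of its gene (chr11:72344722-72362442), and the Cfap161 window ends 42 bases before its RefSeq start.
Cfap161: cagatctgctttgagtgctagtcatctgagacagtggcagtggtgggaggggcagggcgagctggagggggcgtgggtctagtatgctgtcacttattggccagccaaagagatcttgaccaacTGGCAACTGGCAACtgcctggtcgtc
Cfap44: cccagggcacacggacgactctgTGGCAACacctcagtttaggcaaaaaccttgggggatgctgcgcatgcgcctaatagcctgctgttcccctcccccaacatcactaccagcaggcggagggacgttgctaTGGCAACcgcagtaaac
Drc1: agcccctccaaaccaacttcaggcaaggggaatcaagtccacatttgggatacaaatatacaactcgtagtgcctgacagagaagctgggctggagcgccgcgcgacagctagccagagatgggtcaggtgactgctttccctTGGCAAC
Tekt1: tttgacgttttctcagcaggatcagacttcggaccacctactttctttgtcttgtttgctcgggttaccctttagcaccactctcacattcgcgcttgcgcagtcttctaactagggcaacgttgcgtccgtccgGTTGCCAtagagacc
Cfap20: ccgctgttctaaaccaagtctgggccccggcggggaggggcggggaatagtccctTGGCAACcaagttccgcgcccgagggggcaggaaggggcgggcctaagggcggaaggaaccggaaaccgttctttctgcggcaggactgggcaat

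RefSeq promoter windows of 300 bases (250 before to 50 after the start) were at hand for 59 of the 72 genes. GTTGCCA was present on either strand in 14 of the 59 (23.7%), against 5.06% of 20784 genes of the files with such a window. The same letters were in 25.5% of the windowed genes of a list of other axonemal genes, in 25.9% of intraflagellar transport genes, in 5.26% of dissociation stress genes and in 0 of 10 ependymal genes outside the axoneme. Of the 31 windowed members over 20 times every other named class 6 held them, and of the 22 with a smaller ratio 8 did. Some smaller ratios rest on very few UMIs in fibroblasts, with 1 for Cfap99 and Tekt2 and 2 for Cfap300 and Dnaaf2. TGTTTAC, a core of forkhead sites, was in 4 members (6.78% against 3.69% of genes) and TATAAA in 3 (5.08% against 14.7%), both strands searched. A longer X-box pattern was also searched. It was in 1 of the 59 members (1.69%), against 0.337% of genes, and in 0 of the 31 members over 20 times every other named class. Its share was 3.64% in the other axonemal genes and 7.41% in the intraflagellar transport genes. The count of 14 members is thus one of the core letters and not of the longer pattern. A match describes the letters of the window and not a bound site.

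In ependymal cells the 72 genes together held 1.21% of all UMIs. Ependymal cells were 8.53% of the cells and held 10.4% of the UMIs of all cells, but 87.9% of the UMIs of the 72 genes. Of the 72, 65 reached a mean of 5 CPM in ependymal cells, and 41 of those 65 (63.1%) were over 20 times higher there than in every other named class, against 3.13% of all 11623 genes at that level. Counted against the unnamed clusters as well, 32 of the 41 stayed over 20 times. Because the classes come from clustering, these ratios are a description and carry no test. Reads near RNA ends were counted, so levels were not divided by gene length, and a higher level of 1 gene than of another says only that more of its molecules were captured.

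**Figure D1:**
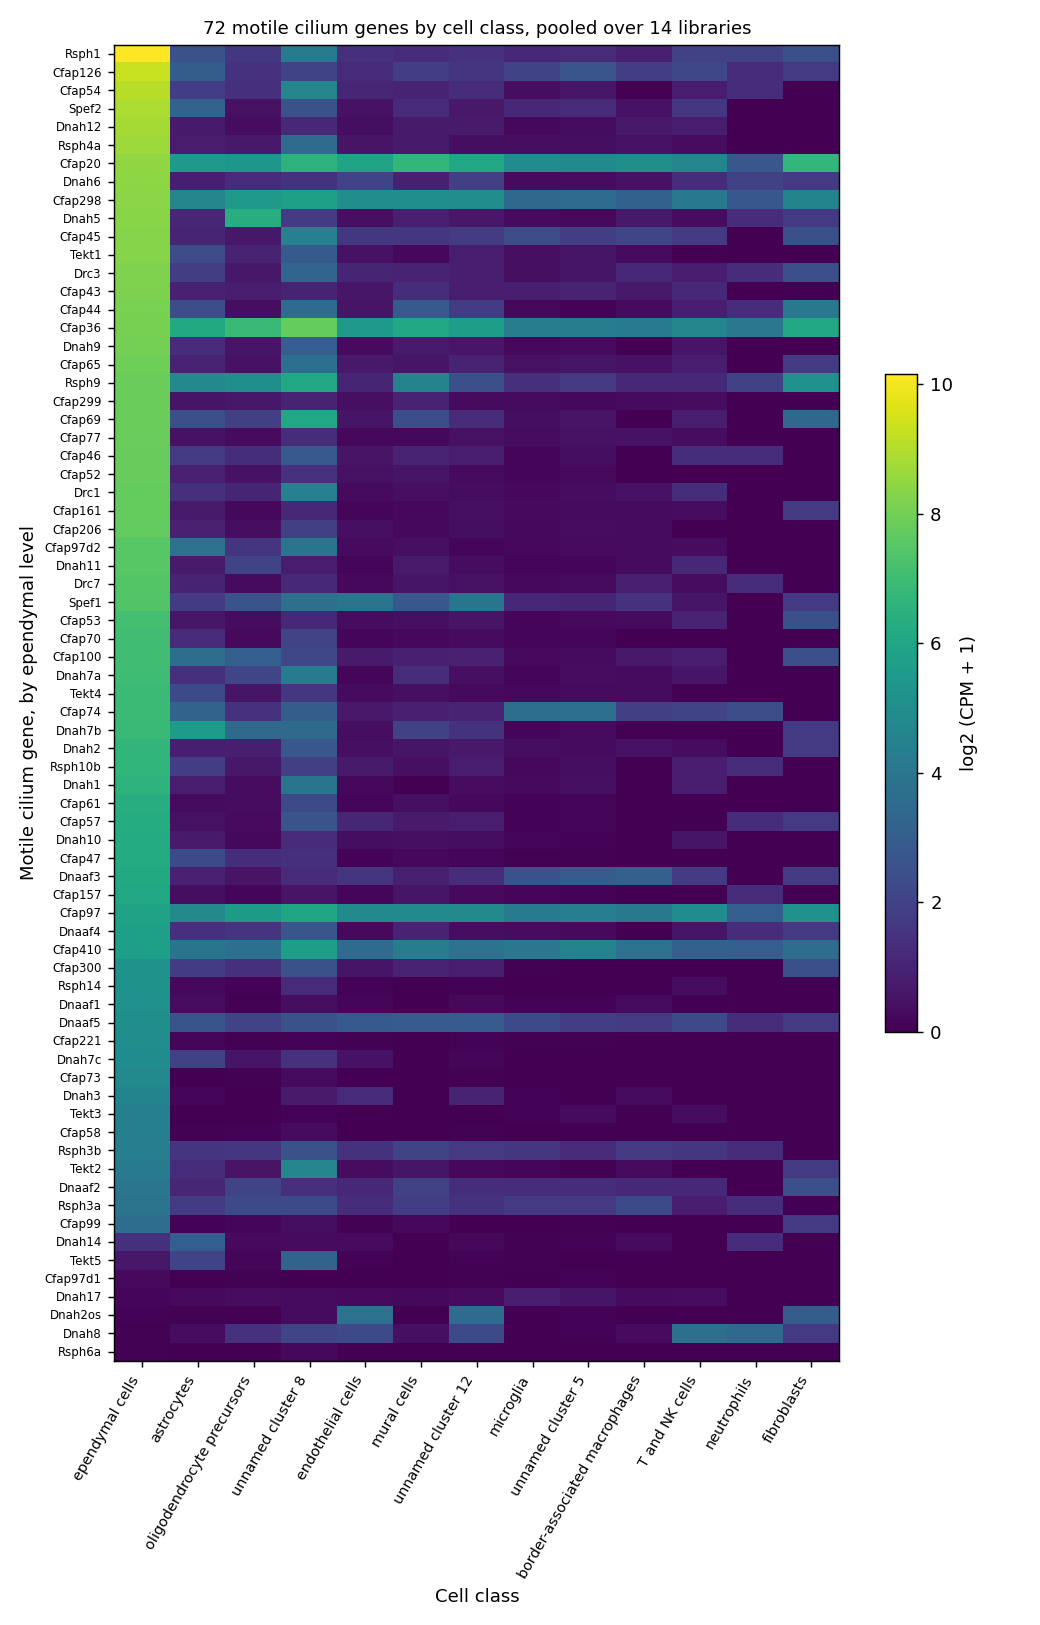
Levels of the 72 genes (rows, ordered by ependymal level) in 13 cell classes (columns), as log2(CPM + 1) of UMIs pooled over the 14 libraries. The ependymal column is bright down to Cfap99, while Cfap20, Cfap36, Cfap97 and Cfap410 are seen in nearly every class and Dnah2os, Dnah8 and Dnah14 are dark in ependymal cells.

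Rsph1, a radial spoke head component (chr17:31255019-31277383, minus strand, protein coding), was the highest member, at 1169 ± 146 CPM (SD, n = 14 libraries) in ependymal cells and 4.74 CPM in astrocytes, its highest other named class. Rsph4a, of the same spoke head, was at 392 ± 58.4 CPM, and Rsph9, the third such component, at 244 ± 35.0 CPM. Rsph9 was also seen outside ependymal cells, at 34.6 CPM in fibroblasts (15 UMIs). Rsph10b was at 101 ± 11.3 CPM and Rsph14 at 39.3 ± 11.5 CPM, both spoke proteins. The near-identical spoke stalk genes Rsph3a and Rsph3b were at 13.2 ± 6.92 and 21.6 ± 13.6 CPM, and counting could have split reads between them. Rsph6a, a paralog of Rsph4a known from sperm, had 0.0437 CPM.

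Tektins, the filament proteins of the doublet wall, spanned a wide range. Tekt1 was at 323 ± 40.3 CPM, Tekt4 at 129 ± 25.9 CPM, Tekt3 at 21.5 ± 4.98 CPM and Tekt2 at 18.3 ± 4.97 CPM. Tekt5 was at 0.455 CPM in ependymal cells and 3.16 CPM in astrocytes. The 3 members with a Drc symbol, part of the nexin-dynein regulatory complex, were all detected, with Drc3 at 297 ± 27.4 CPM, Drc1 at 211 ± 26.1 CPM and Drc7 at 171 ± 17.6 CPM, and each was over 60 times its level in any other named class.

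Members with a Dnah symbol numbered 16, of which Dnah2os is an antisense transcript and the others are dynein heavy chains, the motors of the arms, and 12 reached 5 CPM. Dnah12, an inner-arm chain (chr14:26693274-26891703, plus strand), was at 405 ± 80.8 CPM and 580 times its next class, T and NK cells with 3 UMIs. The inner-arm chain Dnah6 was at 320 ± 68.8 CPM. Of the outer-arm chains, Dnah5 was at 297 ± 67.9 CPM, Dnah9 at 252 ± 31.1 CPM and Dnah11 at 174 ± 36.3 CPM. Dnah7a, Dnah7b and Dnah7c are close copies, so their split (121, 109 and 29.0 CPM) is uncertain. The 5 members with a Dnaaf symbol, factors that help to assemble dynein arms, were all detected: Dnaaf3 was at 72.8 ± 8.40 CPM, Dnaaf4 at 51.2 ± 10.9, Dnaaf1 at 36.5 ± 6.79, Dnaaf5 at 32.3 ± 5.17 and Dnaaf2 at 15.5 ± 2.61 CPM.

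The Cfap group is a naming class of cilium proteins of many kinds, and 32 of its 33 genes reached 5 CPM. Cfap126, also known as Flattop, a microtubule protein of the cilium (chr1:171113918-171126967, plus strand), was at 621 ± 111 CPM. Cfap54 and Spef2, of the central pair apparatus, were at 486 ± 102 and 448 ± 64.2 CPM. Cfap45, a protein inside the doublet (chr1:172520801-172545870, plus strand), was at 297 ± 43.5 CPM. Spef1, which binds the central pair, was at 173 ± 21.0 CPM in ependymal cells and 14.2 CPM in endothelial cells.

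Other members were also present in cells without motile cilia. The lowest ratio among the 65 was that of Cfap97, at 57.3 CPM in pooled ependymal cells and 45.1 CPM in oligodendrocyte precursors (1.27 times), with the ependymal level above every other named class in 11 of 14 libraries. Cfap36 followed at 2.30 times (116 CPM in oligodendrocyte precursors), Dnah7b at 2.41 times (48.0 CPM in astrocytes), Cfap410 at 2.76 times (18.7 CPM in mural cells), Dnaaf2 at 3.25 times (2 UMIs in fibroblasts), Cfap20, of the inner junction of the doublet, at 3.35 times (105 CPM in mural cells), Rsph3a at 3.66 times and Dnah5 at 4.11 times. Dnah5 in oligodendrocyte precursors was present in all 14 libraries, from 18.3 to 106 CPM with a median of 65.7 CPM, while pooled astrocytes, endothelial cells and microglia held 1.16, 0.342 and 0.231 CPM. Some of these ratios rest on very few UMIs in the class of 91 fibroblasts.

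The 7 members under 5 CPM in ependymal cells were Dnah14, Tekt5, Cfap97d1, Dnah17, Dnah2os, Dnah8 and Rsph6a. Several of them were higher elsewhere. Dnah14 was at 7.12 CPM in astrocytes, Dnah8 at 12.4 CPM in T and NK cells (49 UMIs), Dnah17 at 0.757 CPM in microglia (449 UMIs) and Dnah2os, an antisense transcript within Dnah2, at 12.8 CPM in endothelial cells. Whether the counting used strand is not given in the sources used here, so Dnah2os and Dnah2 reads cannot be told apart with certainty.

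A cluster of 1279 cells was left unnamed because it held markers of neurons and of cerebrospinal fluid contacting neurons, and it was led by Snhg11, Scg2 and Sst. Neurons of the latter kind lie at the central canal and bear a cilium. In that cluster the 41 members over 20 times every other named class stood at a median of 1.77% of their ependymal level, against 0.101% in microglia, 0.168% in endothelial cells, 0.205% in oligodendrocyte precursors and 0.457% in astrocytes. The 41 were chosen to lie under 5% of their ependymal level in every named class but not in this cluster, so the choice itself bears on this difference. Members differed widely within it. Tekt2 was higher there than in ependymal cells, at 24.0 ± 11.9 CPM over the 13 libraries with at least 10 such cells, Cfap36 was at 203 ± 37.3 CPM, Cfap69, of the central apparatus, at 58.7 ± 24.6 CPM and Rsph9 at 67.2 ± 10.98 CPM. In pooled cells Cfap97 was also higher there (62.4 CPM, against 57.3 in ependymal cells), and Cfap410 was near its ependymal level (49.1 against 51.7 CPM). Rsph1, by contrast, was at 18.1 ± 6.58 CPM, under 2% of its ependymal level.

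To compare single cells at equal depth, each cell was thinned to 3000 UMIs, which left out 606 of 7658 ependymal cells. All 7052 remaining ependymal cells held UMIs of these genes (exact 95% interval 99.948% to 100%), with a median of 35 UMIs (10th to 90th percentile 25 to 47) from 23 different members. Rsph1 was found in 95.4% of them, Cfap126 in 84.3%, Cfap54 in 73.3% and Cfap45 in 58.5%. Among 45850 microglia, 34.3% held any UMI of the 72 genes, with Rsph1 in 0.375% and Cfap45 in 1.39%. The share with any such UMI was 51.9% in endothelial cells, 65.1% in astrocytes, 72.05% in oligodendrocyte precursors and 92.5% in the unnamed cluster of 1279 cells, with medians of 1, 1, 1 and 3 UMIs. Free RNA in droplets can give UMIs in cells that do not express a gene, and its part in these shares was not tested. Pooled microglia held 1.21 CPM of Rsph1 and 4.04 CPM of Cfap45, the reverse of their order in pooled ependymal cells (1144 and 319 CPM). Without thinning, the median depth was 9332 UMIs in these ependymal cells and 10873 in microglia, and 75.6% of the microglia held a UMI of these genes.

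Inside ependymal cells, the summed level of the 72 genes lay in a narrow range. In TMM-scaled CPM it was 12468.5, 12297 and 12447 in nTg_1 to nTg_3, and 12542, 11734, 12569 and 10694 in Clec7aKO_1 to Clec7aKO_4. In SOD1_1 to SOD1_3 it was 11936, 11796 and 11629, and in SOD1_Clec7aKO_1 to SOD1_Clec7aKO_4 it was 11961, 12659.8, 10503 and 10270.3. All SOD1 values lay below all nTg values, and each knockout group overlapped with nTg and SOD1. In the cells of the larger cluster alone SOD1 and nTg overlapped, at 11420 CPM in nTg_1 (126 cells), 12622 in nTg_2 (766 cells) and 11667 in nTg_3 (26 cells) against 12106, 11452 and 11143 in the SOD1 libraries, without TMM factors. The means were 12404 ± 93.2 in nTg (SD, n = 3), 11885 ± 883 in Clec7aKO (n = 4), 11787 ± 154 in SOD1 (n = 3) and 11348 ± 1151 in SOD1_Clec7aKO (n = 4). No test was made of this sum. The 3 lowest sums belonged to Clec7aKO_4, SOD1_Clec7aKO_3 and SOD1_Clec7aKO_4, which carry the highest library numbers in the labels (16, 13 and 15). They also had the lowest sums of the members with a Dnah symbol (1635, 1490 and 1525 CPM, against 1885 or more in the other 11). Without these 3 libraries, an alternative chosen after seeing the data, the mean sum was 12282 ± 475 in Clec7aKO and 12310 ± 494 in SOD1_Clec7aKO. The latter mean is that of SOD1_Clec7aKO_1 and SOD1_Clec7aKO_2 alone, and leaving out the lowest sums raises both means by construction. What the library number stands for is not given in the labels, and its part in these values was not tested beyond the fits that left out these libraries or took the number as a covariate, in which 0 members were called in ependymal cells in every comparison.

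The share of ependymal cells in the suspension varied more. They were 20.9%, 13.6% and 14.9% of the cells in nTg, 2.38%, 12.9%, 11.2% and 14.1% in Clec7aKO, 1.21%, 5.77% and 7.04% in SOD1 and 9.002%, 4.69%, 7.14% and 1.09% in SOD1_Clec7aKO. The SOD1 libraries lay below nTg without overlap, and Clec7aKO_1 lay far below the other Clec7aKO libraries. Over whole libraries the 72 genes were at 2680 to 3847 CPM in nTg, 665 to 2622 in Clec7aKO, 291 to 749 in SOD1 and 248 to 1133 in SOD1_Clec7aKO. The order of libraries was not that of the shares throughout, since Clec7aKO_4, with the highest share of its group, held 2207 CPM against 2622 in Clec7aKO_2. In a whole-library value, fewer ependymal cells and less RNA per cell cannot be told apart, and a share also depends on how many other cells were captured.

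**Figure D2:**
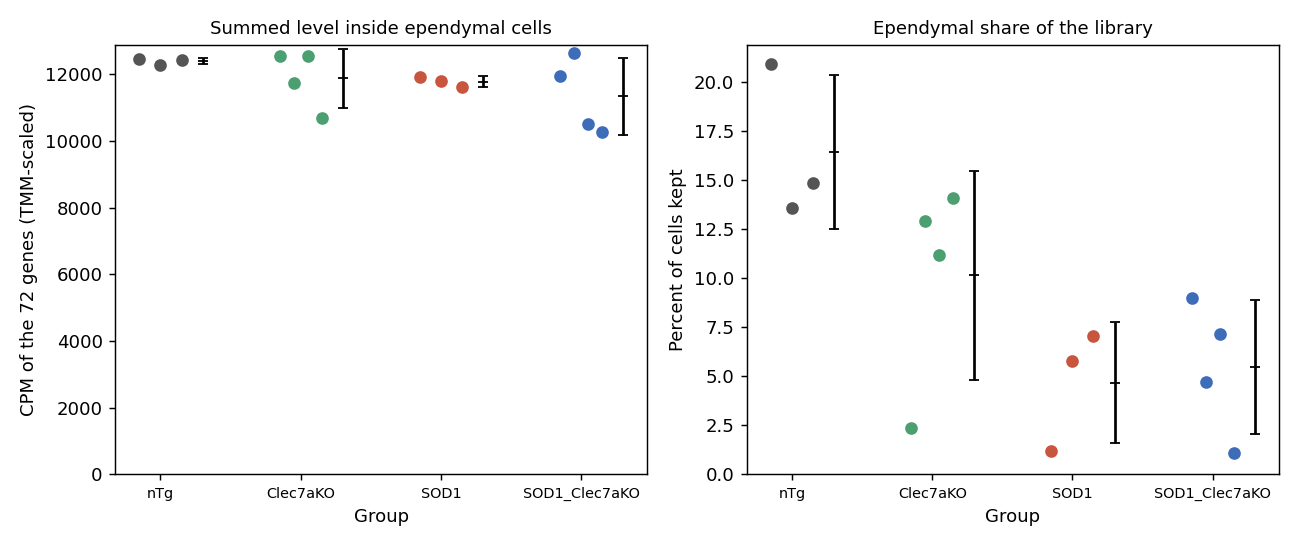
Left, the summed TMM-scaled CPM of the 72 genes inside ependymal cells, and right, ependymal cells as percent of cells kept, with 1 point per library and the mean ± SD of each group as a black bar. The sums stay between 10270.3 and 12659.8 CPM, while the shares range from 1.09% to 20.9%.

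Among the highest members, Rsph1 was at 1159.5, 1124 and 1081 CPM in the nTg libraries, 1209.8, 991, 1075 and 989 in Clec7aKO, 1426, 1263 and 1059.9 in SOD1 and 1342, 1476, 1089 and 1139 in SOD1_Clec7aKO. The 4 groups overlapped. Cfap126 was at 659.7, 623 and 570.2 CPM in nTg, 735.5, 541.6, 556 and 456.5 in Clec7aKO, 781, 691 and 625.6 in SOD1 and 754, 794, 506 and 438 in SOD1_Clec7aKO, again with overlap. Dnah12 was at 472, 481 and 509 CPM in nTg, 412, 463, 489 and 361.5 in Clec7aKO, 340.6, 412 and 436 in SOD1 and 338, 316, 302 and 329.7 in SOD1_Clec7aKO. Every SOD1 library was below every nTg library for Dnah12, and every SOD1_Clec7aKO library below every Clec7aKO library.

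**Figure D3:**
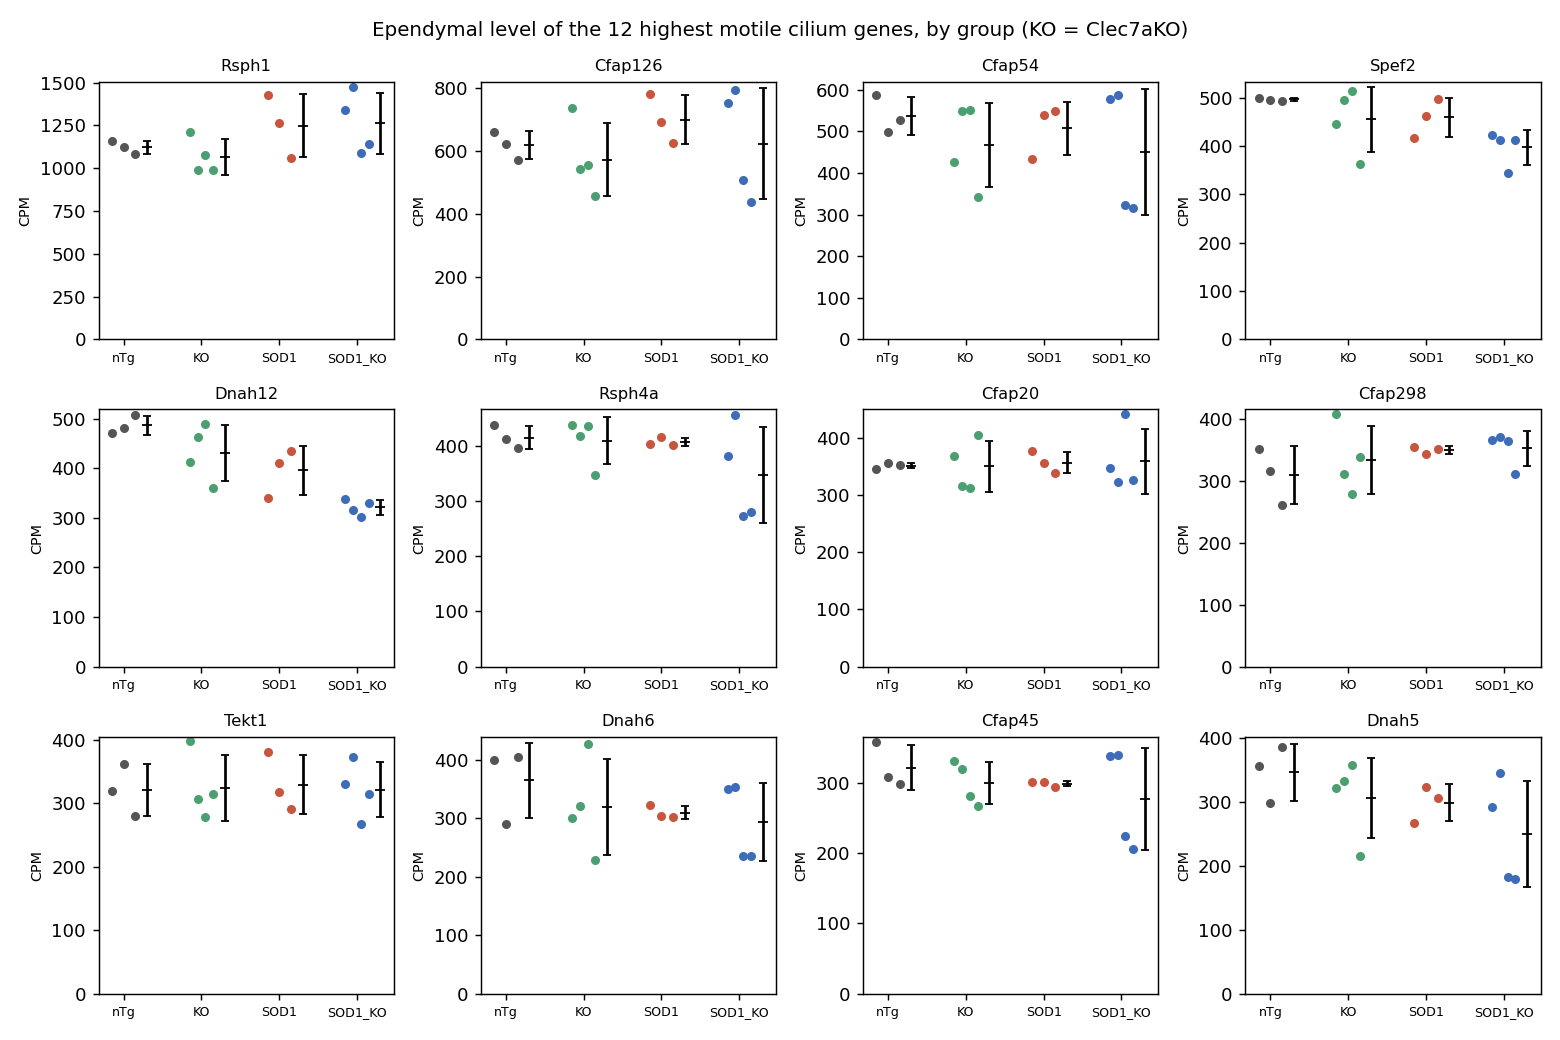
TMM-scaled CPM in ependymal cells of the 12 members with the highest mean level, 1 panel per gene, 1 point per library, with the mean ± SD of each group as a black bar. Rsph1 lies between 989 and 1476 CPM with overlapping groups, and Dnah12 is lowest in the SOD1_Clec7aKO libraries.

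For the effect of the transgene in ependymal cells, SOD1 was set against nTg. No member passed the test: 66 of the 72 were abundant enough to test and 0 had an adjusted p under 0.05 (edgeR quasi-likelihood test, Benjamini-Hochberg over 15369 genes), where 1.03% of all genes tested did (0.996% higher and 0.039% lower). Without adjustment 6 members had p under 0.05, all lower in SOD1, against 7.61% of all genes. DESeq2 also called 0 members, against 1.54% of all genes, with 7 members under 0.05 unadjusted. The median log2 fold change of the 66 was -0.13, against -0.01 over all genes, and 50 of the 66 were negative, where 51.9% of all genes were. The standard errors of members ranged from 0.14 to 0.57 with a median of 0.18 on the log2 scale. In simulated counts of this comparison over 15369 genes, 50.5% of genes changed by 1 log2 unit and 89% of those changed by 2 were recovered, with 9 false calls. These shares are over all genes tested and not over members, and changes under 1 log2 unit were not simulated.

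The 3 members with the smallest p in that comparison were Cfap74, Cfap70 and Cfap46. Cfap74, a central apparatus protein, was at 127, 129 and 127 CPM in nTg and 72.4, 94.3 and 101 CPM in SOD1, so the groups did not overlap (log2 fold change -0.49 ± 0.15 SE, edgeR adjusted p = 0.233). Cfap70, which sits at the outer dynein arm, was at 145 ± 21.1 CPM in nTg and 103 ± 14.4 in SOD1 (-0.47 ± 0.16, adjusted p = 0.349). Cfap46, of the central apparatus, was at 244 ± 16.1 and 185 ± 26.6 CPM (-0.39 ± 0.15, adjusted p = 0.491). None of the 3 passed the threshold. In the larger ependymal cluster alone the log2 fold change was -0.16 for Cfap74, -0.39 for Cfap70 and -0.13 for Cfap46 (edgeR adjusted p = 1.00 each), 0 members had an unadjusted p under 0.05 and the median over 65 members was -0.02. That cluster held only 126 cells of nTg_1 and 26 of nTg_3, with median depths of 3798.5 and 4345 UMIs. A call missed there does not show that a change is absent. With cells marked as doublets kept, Cfap74 passed the threshold (-0.56, edgeR adjusted p = 0.0376). The ependymal class then took in a cluster of 508 cells that also scored for microglia. Without a filter on low counts Cfap61 and Dnah3 passed, both lower in SOD1. Cfap61 was at 75.4, 86.2 and 113 CPM in nTg and 33.7, 58.1 and 71.3 in SOD1. Dnah3 was at 27.7, 23.3 and 34.2 CPM in nTg and 21.2, 10.4 and 19.7 in SOD1. The groups did not overlap for either gene.

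Levels of other gene lists in this class were as follows. The 12 microglial markers, all detected, summed to 302 to 336 CPM in ependymal cells of nTg, 266 to 942 in Clec7aKO, 983 to 3214 in SOD1 and 539.6 to 2822 in SOD1_Clec7aKO. The 22 dissociation stress genes, all detected, summed to 15079 to 19573 CPM in nTg, 12213 to 23098 in Clec7aKO, 9011 to 16168 in SOD1 and 6325 to 13868 in SOD1_Clec7aKO. The microglial markers did not overlap between nTg and SOD1, the stress genes did, and no stress gene passed the test. Their part in the values of the cilium genes was not tested. SOD1_1, with 109 ependymal cells, and SOD1_Clec7aKO_4, with 28, held the fewest cells, and without both the count of members called stayed 0 in every comparison while the log2 fold change of Cfap74 was -0.40.

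For the effect of Clec7a loss in transgenic animals, SOD1_Clec7aKO was set against SOD1. Of 66 members 0 were called (edgeR), where 0.026% of all genes were (0.00651% higher and 0.0195% lower). Without adjustment 1 member had p under 0.05, against 7.7% of all genes, and DESeq2 called 0 members, against 0.0586% of all genes, with 2 unadjusted. The median log2 fold change of members was 0.01, against 0.00 over all genes. Cfap77, a protein inside the doublet, was at 186, 191 and 209.8 CPM in SOD1 and 212, 248, 313 and 401 CPM in SOD1_Clec7aKO (0.55 ± 0.21, edgeR adjusted p = 0.632). SOD1_Clec7aKO_3, SOD1_Clec7aKO_4 and Clec7aKO_4 (342 CPM) stood above the other 11 libraries for this gene, and they are the same 3 libraries that held the lowest member sums. Without them the log2 fold change of Cfap77 was 0.23 (edgeR adjusted p = 0.636). They hold its highest values, so leaving them out lowers this difference by construction. Cfap57 (0.31 ± 0.15) and Dnah12 (-0.31 ± 0.15) came next, both with adjusted p = 0.643.

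In animals without the transgene, Clec7aKO was set against nTg. Of 66 members 0 were called (edgeR), against 0.026% of all genes, all lower. Without adjustment 1 member had p under 0.05, against 1.74% of all genes, and DESeq2 called 0 members, against 0.0586% of all genes, with 0 unadjusted. The median log2 fold change was -0.05 for members and 0.02 for all genes. The smallest p belonged to Cfap97 (-0.34 ± 0.15), Dnah14 (-0.83 ± 0.45) and Rsph3b (0.63 ± 0.35), with an edgeR adjusted p of 1 each. Rsph3b ranged from 8.73 CPM in SOD1_1 to 56.2 CPM in SOD1_Clec7aKO_4, and was at 39.9 CPM in Clec7aKO_4 and 31.7 CPM in SOD1_Clec7aKO_3, so its 3 highest values fell in the 3 libraries that were also highest for Cfap77. Without them its log2 fold change was 0.35, a drop that follows from leaving out its highest values.

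The transgene was also compared within the knockout, as SOD1_Clec7aKO against Clec7aKO. Of 66 members 0 were called (edgeR), against 1.56% of all genes (1.38% higher and 0.182% lower), while 5 members had an unadjusted p under 0.05, all lower with the transgene, against 14.9% of all genes. DESeq2 called 0, against 1.76% of all genes, with 5 unadjusted. The median log2 fold change was -0.10 for members and -0.03 for all genes. Dnah12 came nearest the threshold (-0.43 ± 0.14, adjusted p = 0.157), followed by Cfap44, of the tether between an inner dynein arm and the doublet (-0.41 ± 0.16, adjusted p = 0.254), and Cfap69 (-0.38 ± 0.16, adjusted p = 0.280). With cells marked as doublets kept, and so with the cluster of 508 cells that also scored for microglia, Dnah12 passed (-0.55, edgeR adjusted p = 0.0170). The comparison does not share libraries with SOD1 against nTg, and Cfap74 stood at -0.30 ± 0.13 in it (adjusted p = 0.304).

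A test of the difference between the 2 transgene effects called 0 of 66 members (edgeR), against 0.00651% of all genes, and 0 had an unadjusted p under 0.05, against 2.24%. DESeq2 called 0 as well, with 0 unadjusted. Cfap57 (0.35 ± 0.20), Dnah3 (0.68 ± 0.49) and Dnah1 (0.32 ± 0.24) had the smallest p, with an adjusted p of 1.

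**Figure D4:**
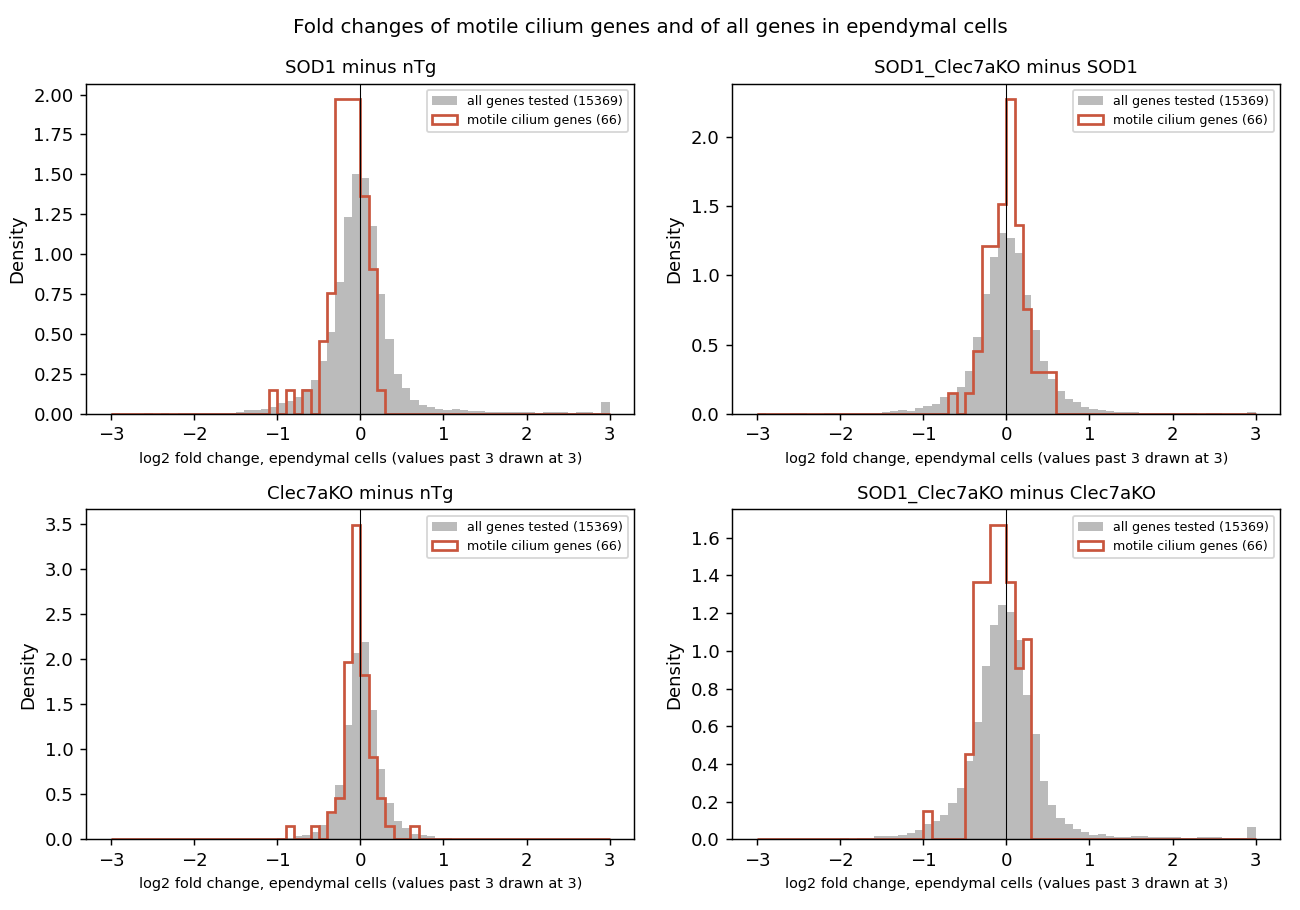
Density of log2 fold changes in ependymal cells for the 66 members tested (line) and all 15369 genes tested (grey), in 4 comparisons; values past 3 are drawn at 3. The members lie close to 0 in each, with medians from -0.13 to 0.01.

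The other parts of the ciliary programme were looked at in the same fits. Of 14 ciliary transcription regulators tested, 0 were called in any comparison (edgeR), with 3 under 0.05 unadjusted for SOD1 against nTg and a median log2 fold change of -0.18. Foxj1 was at 697, 603 and 532 CPM in nTg, 397, 513 and 632 in SOD1, 686, 799, 562 and 679 in Clec7aKO and 597, 587, 602 and 678 in SOD1_Clec7aKO. Its nTg and SOD1 values overlapped (-0.24 ± 0.19, adjusted p = 0.854). Of 69 other axonemal genes, 31 intraflagellar transport genes and 17 genes of centriole amplification and basal bodies, 0 were called in any comparison, with medians of -0.09, -0.07 and -0.09 for SOD1 against nTg and 7, 1 and 0 genes under 0.05 unadjusted. Of 16 ependymal genes outside the axoneme, Gfap, an intermediate filament protein of astrocytes, was the 1 gene called. Gfap was at 39.1, 31.2 and 53.9 CPM in nTg and 119, 291 and 261 CPM in SOD1 (2.47 ± 0.39, adjusted p = 0.00209), and it rose within the knockout as well (1.87 ± 0.34, adjusted p = 0.00660). In the larger ependymal cluster alone neither call held (1.65, edgeR adjusted p = 1.00, and 0.81, adjusted p = 0.850), and with Xist as a covariate the first did not (2.51, adjusted p = 0.0649). The larger cluster held only 126 cells of nTg_1, 26 of nTg_3 and 32 of Clec7aKO_3, so a lost call there does not show that a change is absent. The 8 astrocyte markers summed to 1284 to 1389.8 CPM in ependymal cells of nTg and 1080.4 to 1747 CPM in SOD1, and their part in the Gfap values was not tested. Of 22 dissociation stress genes 0 were called, with 6 under 0.05 unadjusted and a median of -0.83 for SOD1 against nTg.

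Outside ependymal cells some members passed the test. In microglia, 37 members were tested for SOD1 against nTg, and 1 rose and 6 fell (edgeR), or 7 of 37, where 34.1% of all genes tested were called (20.5% higher and 13.6% lower). DESeq2 called 11, against 37.0% of all genes. The count was 3 without nTg_1, 11 without SOD1_Clec7aKO_4 and 12 without Clec7aKO_1, and 3 with Xist as a covariate, while Cfap45, Cfap74 and Cfap410 passed in all 22 alternatives run.

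Cfap74 and Cfap410 are the called members whose ependymal level is under 20 times the microglial one. Cfap74 was at 23.5, 24.4 and 21.7 CPM in microglia of nTg, 25.0, 25.5, 26.8 and 18.0 in Clec7aKO, 8.82, 8.79 and 8.95 in SOD1 and 9.01, 7.59, 4.24 and 5.81 in SOD1_Clec7aKO. Each transgenic library lay below each library without the transgene (SOD1 against nTg: -1.39 ± 0.22, edgeR adjusted p = 0.000324). At 3000 UMIs per cell Cfap74 was found in 4.00% of microglia and 28.6% of ependymal cells. Cfap410, a protein of the ciliary base and the mouse counterpart of a human gene linked to amyotrophic lateral sclerosis (chr10:77978524-77986905, plus strand), went the other way.

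Microglial Cfap410 was at 8.92, 9.81 and 10.8 CPM in nTg, 10.4, 11.01, 10.02 and 13.1 in Clec7aKO, 21.4, 17.8 and 17.2 in SOD1 and 20.2, 21.4, 24.3 and 22.7 in SOD1_Clec7aKO, again with no overlap between transgenic and other libraries (0.94 ± 0.15, adjusted p = 0.000241). Cfap45, named after its values were seen, was at 9.19, 10.96 and 8.72 CPM in nTg and 1.52, 2.91 and 3.22 in SOD1 (-1.91 ± 0.24, adjusted p = 4.5e-05). Its microglial level was 1.27% of the ependymal one, the highest such share among the 41 members over 20 times every other named class. The other 4 that fell, Drc3, Dnah2, Cfap100 and Dnah5, were each under 1 CPM in microglia and lost their calls in 3, 7, 9 and 13 alternatives.

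The microglial values pool clusters with different leading genes, and the groups drew on different ones. Clusters led by Crybb1 and P2ry12 or, in the last case, by Xist, held 21.6%, 18.1% and 57.9% of the microglia of nTg and 49.2%, 33.6% and 13.1% of those of Clec7aKO. A cluster led by Hcar2 and Ccl4, one led by Acod1 and Il12b and one led by Gpnmb and Spp1 held 35.7%, 37.0% and 16.5% of the microglia of SOD1 and 41.3%, 12.3% and 36.6% of those of SOD1_Clec7aKO. Within the first cluster led by Crybb1, which kept 1163 cells of nTg and 539 of SOD1, Cfap74 was at 31.2, 27.5 and 22.3 CPM in nTg and 25.6, 21.8 and 20.8 in SOD1, with overlap. In the other one, Cfap74 overlapped as well, at 19.3, 33.4 and 30.9 CPM in nTg and 22.2, 18.3 and 22.4 in SOD1. The pooled SOD1 cells held Cfap74 at 11.9 CPM in the cluster led by Hcar2, 5.85 in that led by Acod1 and 3.70 in that led by Gpnmb, so its level differed between clusters of 1 group. Cfap410 did not overlap between nTg and SOD1 in either cluster led by Crybb1, at 4.46 to 11.5 and 11.6 to 15.4 CPM in nTg against 11.8 to 21.9 and 18.3 to 22.5 in SOD1. Cfap45 overlapped in both, on 0 to 107 UMIs per library. Pooled over libraries, the first of these clusters held Cfap74 at 29.2 CPM in Clec7aKO and 16.5 in SOD1_Clec7aKO, and the other 30.4 and 15.4. Cfap45 was at 10.2 and 3.02 CPM in the first and 11.1 and 3.39 in the other, on 13 and 11 UMIs in SOD1_Clec7aKO. For nTg and SOD1 the pooled Cfap74 values were 27.7 and 23.4 CPM in the first and 32.4 and 21.9 in the other. Pooled values do not show whether libraries overlap. The values are CPM without TMM factors, some libraries had under 30 cells in a cluster, and no test was made within clusters, so the changes over the whole class pool these clusters.

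The 41 members over 20 times every other named class summed to 27.4 ± 4.81 CPM in microglia of nTg and 13.1 ± 3.23 in SOD1. The 41 include Cfap45, Drc3 and Dnah2, so that sum is not separate from the members that fell. The 8 ependymal markers summed to 11.2 to 16.2 CPM in nTg and 2.71 to 6.75 CPM in SOD1, with all 8 detected and 3 of 8 lower (edgeR). The share of ependymal cells was lower in SOD1 too, and its part in these low values was not tested.

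In the knockout background, which shares no library with SOD1 against nTg, microglial Cfap45 was 2.25 ± 0.306 CPM in SOD1_Clec7aKO and 8.74 ± 0.845 in Clec7aKO (SD, n = 4 each). Cfap74 was 6.66 ± 2.08 and 23.8 ± 3.97 CPM, and Cfap410 22.1 ± 1.77 and 11.1 ± 1.38 CPM. The groups did not overlap for these 3 genes, which were chosen after their values were seen, so an exact permutation test run on them restates this separation and its p is not used.

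In astrocytes, 22 members were tested for SOD1 against nTg, and 4 rose and 3 fell (edgeR), 7 of 22, where 32.5% of all genes were called. DESeq2 also called 7, against 29.6% of all genes. The count was 4 without nTg_2 and 4 with Xist as a covariate. Dnah7b, a heavy chain of the inner arm, was at 57.2, 55.5 and 71.6 CPM in nTg, 47.7, 51.7, 63.1 and 43.9 in Clec7aKO, 28.6, 27.3 and 18.2 in SOD1 and 32.3, 26.5, 24.6 and 19.8 in SOD1_Clec7aKO. The transgenic libraries lay below all others (-1.37 ± 0.21, adjusted p = 0.000103). In ependymal cells Dnah7b was at 113, 124 and 141 CPM in nTg and 119, 123 and 100.4 in SOD1, and was not called.

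Dnah14, a heavy chain that was higher in astrocytes than in ependymal cells, was at 9.39, 8.23 and 11.4 CPM in nTg and 3.06, 0 and 1.58 in SOD1 (-2.64 ± 0.59, adjusted p = 0.00239), and Cfap100, an inner-arm factor, fell as well (-1.56 ± 0.45, adjusted p = 0.0123). These genes and the next ones were named after their values were seen. Cfap126 rose from 3.71 ± 1.63 to 12.3 ± 1.60 CPM (1.68 ± 0.40, adjusted p = 0.00365), Cfap36 from 62.9 ± 20.5 to 101 ± 9.92 (0.68 ± 0.20, adjusted p = 0.0138), Rsph9 from 26.2 ± 2.52 to 41.3 ± 7.004 (0.64 ± 0.19, adjusted p = 0.0141) and Cfap54 from 2.45 ± 0.362 to 7.73 ± 5.56 (1.54 ± 0.54, adjusted p = 0.0340). Cfap54 rests on SOD1_2, without which its log2 fold change was 0.80 (adjusted p = 0.326), and it lost its call in 7 alternatives, against 4 for Cfap36, 4 for Rsph9 and 3 for Cfap100. Dnah7b, Dnah14 and Cfap126 passed in all 22 alternatives run. In the knockout background Dnah7b (25.8 ± 5.16 against 51.6 ± 8.28 CPM) and Dnah14 (2.85 ± 2.79 against 9.30 ± 3.02) did not overlap between SOD1_Clec7aKO and Clec7aKO, whereas Cfap126 did, and the exact test run on these genes is not used for the same reason. Dnah14 rested on 9 UMIs over the 922 SOD1_Clec7aKO astrocytes, and its separation is that of TMM-scaled values. In that comparison SOD1_Clec7aKO_4, with 35 astrocytes, was at 0 CPM for Cfap126. Astrocytes came from 2 clusters, and the smaller one, led by Slc7a10, held 85.4%, 87.8% and 86.1% of those of nTg_1, nTg_3 and Clec7aKO_3 and none of the other libraries. In the larger cluster alone, led by Agt and Gfap, Dnah7b was at 42.0, 56.3 and 83.6 CPM in nTg and 28.3, 26.4 and 18.0 in SOD1, still without overlap. The pooled cells of that cluster held Dnah14 at 7.09 CPM in nTg and 1.48 in SOD1 (7 UMIs), and Cfap126 at 6.11 and 11.9 CPM. Of the 783 nTg cells pooled there, 617 came from nTg_2. The pooled values rest mostly on that library and do not show whether the groups overlap.

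The 8 ependymal markers, all detected in astrocytes, summed to 88.2 to 93.6 CPM there in nTg, 68.9 to 92.6 in Clec7aKO, 224 to 299.9 in SOD1 and 106 to 334 in SOD1_Clec7aKO, and 2 of the 5 tested, Rarres2 and Foxj1, were called higher. The 41 members over 20 times every other named class summed to 59.5 ± 16.3 CPM in nTg astrocytes and 94.3 ± 38.0 in SOD1. The 41 include Cfap126 and Cfap54, so that sum is not separate from the members that rose. The part of these sums in the members that rose was not tested. Dnah7b and Dnah14, which are not among the 41, fell, and the part of these sums in their values was not tested either.

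**Figure D5:**
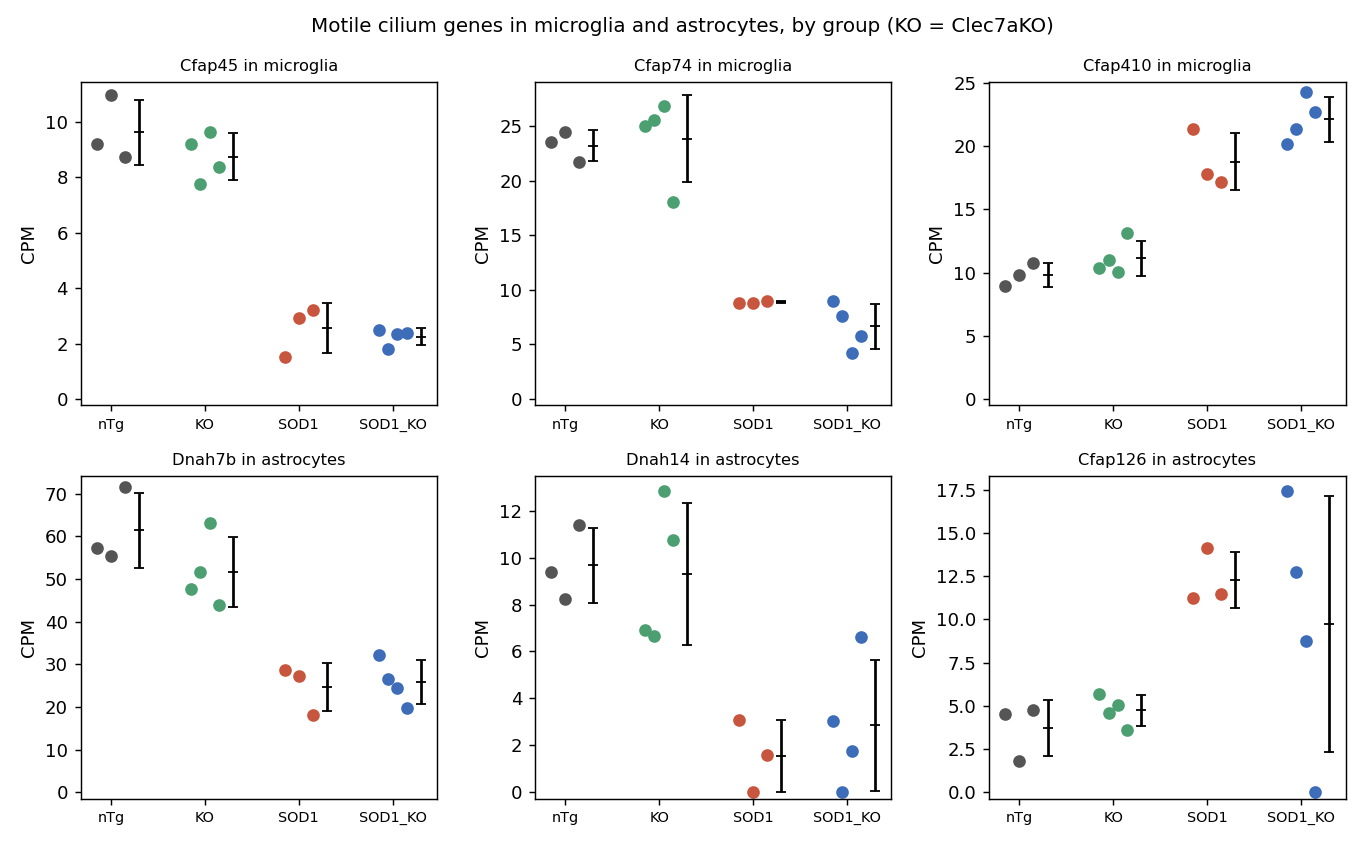
TMM-scaled CPM of Cfap45, Cfap74 and Cfap410 in microglia (top) and of Dnah7b, Dnah14 and Cfap126 in astrocytes (bottom), 1 point per library with the mean ± SD of each group as a black bar. For the first 5 genes the 7 libraries with the transgene lie apart from the 7 without it, and Cfap126 overlaps through 1 SOD1_Clec7aKO library at 0.

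In endothelial cells 18 members were tested for SOD1 against nTg and 0 were called (edgeR), with 0 under 0.05 unadjusted where 0.583% of all genes were called. DESeq2 also called 0, against 1.2% of all genes. Cfap36 was at 53.1, 44.8 and 41.9 CPM in nTg and 40.15, 41.0 and 40.2 in SOD1, which did not overlap and did not pass the test.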

How the data were processed

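The deposited values were raw UMI counts per gene and barcode in 14 matrices, without normalization by the authors. The file headers name software version 3.0.2, and the submitters' processing notes name Cell Ranger, Seurat, DESeq2 and mm10. The annotation and cell-calling rule are not given in the sources used here. No columns of other samples were present (0).

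Barcodes with at least 500 genes, 1000 UMIs and at most 15% mitochondrial UMIs were kept, and 7046 were removed by doublet score. Clusters (scanpy 1.11.5, 2000 variable genes without the members, 30 components, 15 neighbours, Leiden resolution 1.0) were named from fixed markers. A cluster whose next-best class also scored over 5.0 on the log2 scale, a limit set after data had been seen, got no name. UMIs were summed per class and library, for libraries with at least 10 cells of the class, and tested with edgeR 4.0.16 (R 4.3.3; TMM, filterByExpr, 1 quasi-likelihood fit of all 14 libraries, 2-sided). DESeq2 1.42.0, covariates, other clusterings, left-out libraries and kept doublets were alternatives. The SE of a fold change is its size over the square root of F. Log2 fold changes near 0 UMIs depend on the prior count. CPM across classes are plain shares of pooled UMIs, and CPM by group are TMM-scaled. Intervals cover counting error only.

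Named genes were the 12 highest in ependymal cells, the 8 with the lowest ratio to another class, those with the smallest p in each comparison, called microglial members under 20 times lower than in ependymal cells, each Rsph, Tekt and Drc gene, and the leading 2 of other families; further members were named after their values were seen. Members, lists and rules were chosen with earlier results of these data known. The fits were tested on simulated data with 200 changed genes. Libraries were taken as separate animals, and where they are not, p-values measure technical spread. Of the 72 IDs, 68 matched GENCODE vM21 with their version, and only those have positions here.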

Additional observations from a re-analysis of the deposited data

Results flagged for a closer look

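In groups of 4 libraries, 4 of 82 combinations of a gene and a group had 1 library far from the other 3, close to the 1 in 20 that chance flags. Spef2, of the central apparatus, was at 344 CPM in ependymal cells of SOD1_Clec7aKO_3, against 412 to 422 CPM in the other SOD1_Clec7aKO libraries. Cfap298, a dynein arm assembly factor, was at 311 CPM in ependymal cells of SOD1_Clec7aKO_4 (28 cells), against 364 to 371 CPM. Cfap69 was at 288 CPM in ependymal cells of Clec7aKO_3, one of the libraries with high Xist, against 205 to 207 CPM. Rsph9 was at 13.2 CPM in astrocytes of SOD1_Clec7aKO_4 (35 cells), against 27.0 to 29.5 CPM.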

How the results depend on the processing

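Of the main results, 230 values under an alternative stayed close to the main value and 19 moved. A count was taken as close when it stayed within a set ratio of the main count, and a level when it stayed within 1 SD. Members called in ependymal cells for SOD1 against nTg were 2 (both lower) without a filter on low counts and 1 (lower) with doublets kept, and for SOD1_Clec7aKO against Clec7aKO 1 (lower) with doublets kept; leaving out any library gave 0 in every comparison. In microglia the count of 7 became 11 with DESeq2, 3 with Xist as a covariate, 11 after adding library numbers to the fit, 11 when doublets were kept, and 3 to 12 when 1 library was left out. In astrocytes it became 4 with Xist and 4 to 10 when 1 library was left out, and in endothelial cells 1 (lower) without the filter. The summed ependymal level was 12733 CPM in nTg and 11567 in SOD1 without TMM factors. With doublets kept it was 12061 in nTg, 10512 in SOD1 and 9793 in SOD1_Clec7aKO. The class then took in a cluster of 508 cells that also scored for microglia (4.40 on the log2 scale). It also took in 1 of 145 cells that scored for astrocytes as well (4.50). In the larger ependymal cluster alone, an alternative chosen after seeing the data, 48 genes in all were called for SOD1 against nTg in place of 153 higher and 6 lower. The summed level there was 11561 in nTg and 11754 in SOD1. These values were scaled with TMM factors fitted on both clusters, and without TMM factors the mean of nTg lay above that of SOD1. Leaving out 1 library gave 12372 to 12458 in nTg, 11657 to 12282 in Clec7aKO, 11712 to 11866 in SOD1 and 10911 to 11708 in SOD1_Clec7aKO. The count of 41 members over 20 times every other named class lay between 40 and 43 under the other clusterings, pooling and left-out libraries, and was 32 with the unnamed clusters among the classes compared. The cause of these shifts was not tested. With replicate numbers as a block, the count of called members was 0 in ependymal cells, 7 in microglia and 7 in astrocytes, and in microglia Dnah5 was no longer called (-1.67, edgeR adjusted p = 0.0517) while Rsph4a was. Correlations of same-numbered libraries ran from -0.152 to 0.276. Those numbered 3 all exceeded 0.1 (0.122 to 0.276), and the pair numbered 4 was at 0.131. Those numbered 1 were all positive (0.049 to 0.264), while those numbered 2 were of mixed sign. Not every pair passed 0.1, so the numbers were not taken as a pairing. Of single genes, 701 values kept their call, 53 lost it, 2 gained it and 0 reversed. Ependymal depth limits SOD1_1 and SOD1_Clec7aKO_4 most.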

Other observations

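Dnah8, a heavy chain of the outer arm known from sperm, was nearly absent from ependymal cells and split the libraries in endothelial cells. It was at 10.4 CPM in nTg_1, 13.3 in Clec7aKO_1, 8.28 in SOD1_2 and 8.22 in SOD1_Clec7aKO_2, and between 0 and 0.669 CPM in the 10 other libraries, so that 1 library of each group was high. Dnah2os, an antisense transcript, was present in endothelial cells of all 14 libraries, from 8.66 to 22.4 CPM. No test was made of either pattern.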
